A study of Homo sapiens with 6 samples.

Results

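Ion channels that carry sodium and calcium across the plasma membrane or release calcium from the endoplasmic reticulum were compared between mesodermal progenitors and the undifferentiated human embryonic stem cells (hESC) they were made from. The genes were chosen by name. A probe set was taken where its annotation held 1 symbol that begins with CACN or is an SCN, TRPC, TRPM or TRPV gene, or is one of the PIEZO, ORAI, ITPR and RYR genes. This gave 179 of 54675 probe sets, which stand for 72 of 19775 genes. Of the 72, 67 were classed by name alone as channel subunits. Another 4 are antisense or opposite-strand genes named after a channel, and TRPC4AP encodes a protein that binds a channel.

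The series has 6 arrays in 2 groups. The 3 progenitor arrays hold RNA of cells differentiated from the hESC line H9 in Stemline II medium with VEGF, FGF2, BMP4 and activin A, and sorted on day 3.5 as negative for CD326 (EPCAM) and positive for CD56 (NCAM1). The 3 hESC arrays hold RNA of undifferentiated H9 cells, an established human line, with no sort named in the labels. Both groups come from 1 line, and no other line was measured. A sort is named only for the differentiated cells, so effects of the sort and of the differentiation cannot be told apart. The labels do not say whether the arrays of a group came from separate cultures, and the p-values may then measure technical spread between samples only.

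Voltage-gated sodium and calcium channels open when the membrane depolarises and are built from a large pore subunit with smaller auxiliary subunits. TRP channels pass calcium and other cations in response to lipids, temperature, stretch or receptor signals, and PIEZO channels open under mechanical force. Inside the cell, IP3 receptors and ryanodine receptors let calcium out of the endoplasmic reticulum. When that store runs down, STIM proteins in its membrane open ORAI channels in the plasma membrane, a route called store-operated calcium entry. Non-excitable cells rely largely on this store cycle for calcium signals.

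The labels were first set against marker genes. All 9 measured pluripotency markers were lower in the progenitors, 7 of them at least 2-fold, and all 10 mesoderm markers were higher. Summed deposited intensities of the pluripotency list were 11066.8 to 11351.5 on the progenitor arrays and 34546.6 to 37843.4 on the hESC arrays. For the mesoderm list they were 24106 to 24428 and 225 to 310. The pluripotency list includes EPCAM, an antigen of the sort, so this gene is no independent check of the labels. Progenitor array 1 stood apart. The 12 endothelial and early blood markers summed to 7315 on it and to 2125 and 2307 on the other progenitor arrays, against 698 to 750 on the hESC arrays. Of these 12, 7 (58.3%) were called higher in the progenitors, against 26.7% of all genes. None of the 12 was at or below 1, which is close to the floor of the table. Their part in the values of TRPV2, RYR1, TRPC4, ORAI1, SCN4B, SCN3B, CACNA2D4, CACNA1G, ITPR1 and PIEZO1 was not tested. These genes were among those that differed between array 1 and the other progenitor arrays. Of 6 smooth muscle markers 3 were higher and 1 lower, a called share of 66.7%. Their summed intensities were lower in the progenitors, at 2879 to 2943 against 3835 to 4137 on the hESC arrays. Of 6 endoderm markers 2 were higher and 1 lower, a called share of 50%. Their sums overlapped, at 391 to 498 on the progenitor arrays and 424 to 496 on the hESC arrays. The called share of all genes was 47.9%. Progenitor arrays 2 and 3 were much alike, with 7 genes over 2-fold apart, against 180 and 208 between each of them and array 1. In bulk RNA, fewer cells of a type and less RNA per cell cannot be told apart.

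Of the 72 genes, 14 rose and 17 fell in the progenitors and 41 did not pass the test. The test was limma on log2(intensity + 16) after quantile normalization, with a call at a Benjamini-Hochberg adjusted p under 0.05 over all 19775 genes. The called share was 43.1%, against 47.9% of all genes. Among all genes 26.7% were called higher and 21.2% lower, so the share of these genes was near that of all genes. Their median log2 change was 0.13, against 0.04 over all genes. At least 2-fold changes were found for 4 genes that rose (TRPV2, ORAI3, ITPR1 and TRPV4) and 8 that fell (ITPR3, RYR1, TRPC4, CACNA1A, RYR2, ITPR2, CACNA2D3 and PIEZO1). Of all genes, 9.39% rose and 7.22% fell by that much. The groups did not overlap in 40 of the 72 genes, against 57.3% of all genes (32% with the progenitors higher and 25.3% with them lower).

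How many genes rose or fell depended on how arrays were scaled. Median centring of the gene values gave 9 higher and 26 lower, with all genes at a median of -0.15. Scaling on spiked-in hybridization controls gave 30 higher and 12 lower, with all genes at a median of 0.32. Of the 31 called genes, 21 kept direction and call under each of the 3 other scalings. CACNA2D1 was the called gene whose direction turned, and 9 genes lost the call. CACNA1I, CACNG1, CACNA1G-AS1 and ORAI2 lost it with the hybridization controls, and PIEZO2, SCN2B, TRPM6, TRPV3 and TRPC4AP with the median centring. All 12 genes with a 2-fold change kept direction and call under these scalings.

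**Figure D1:**
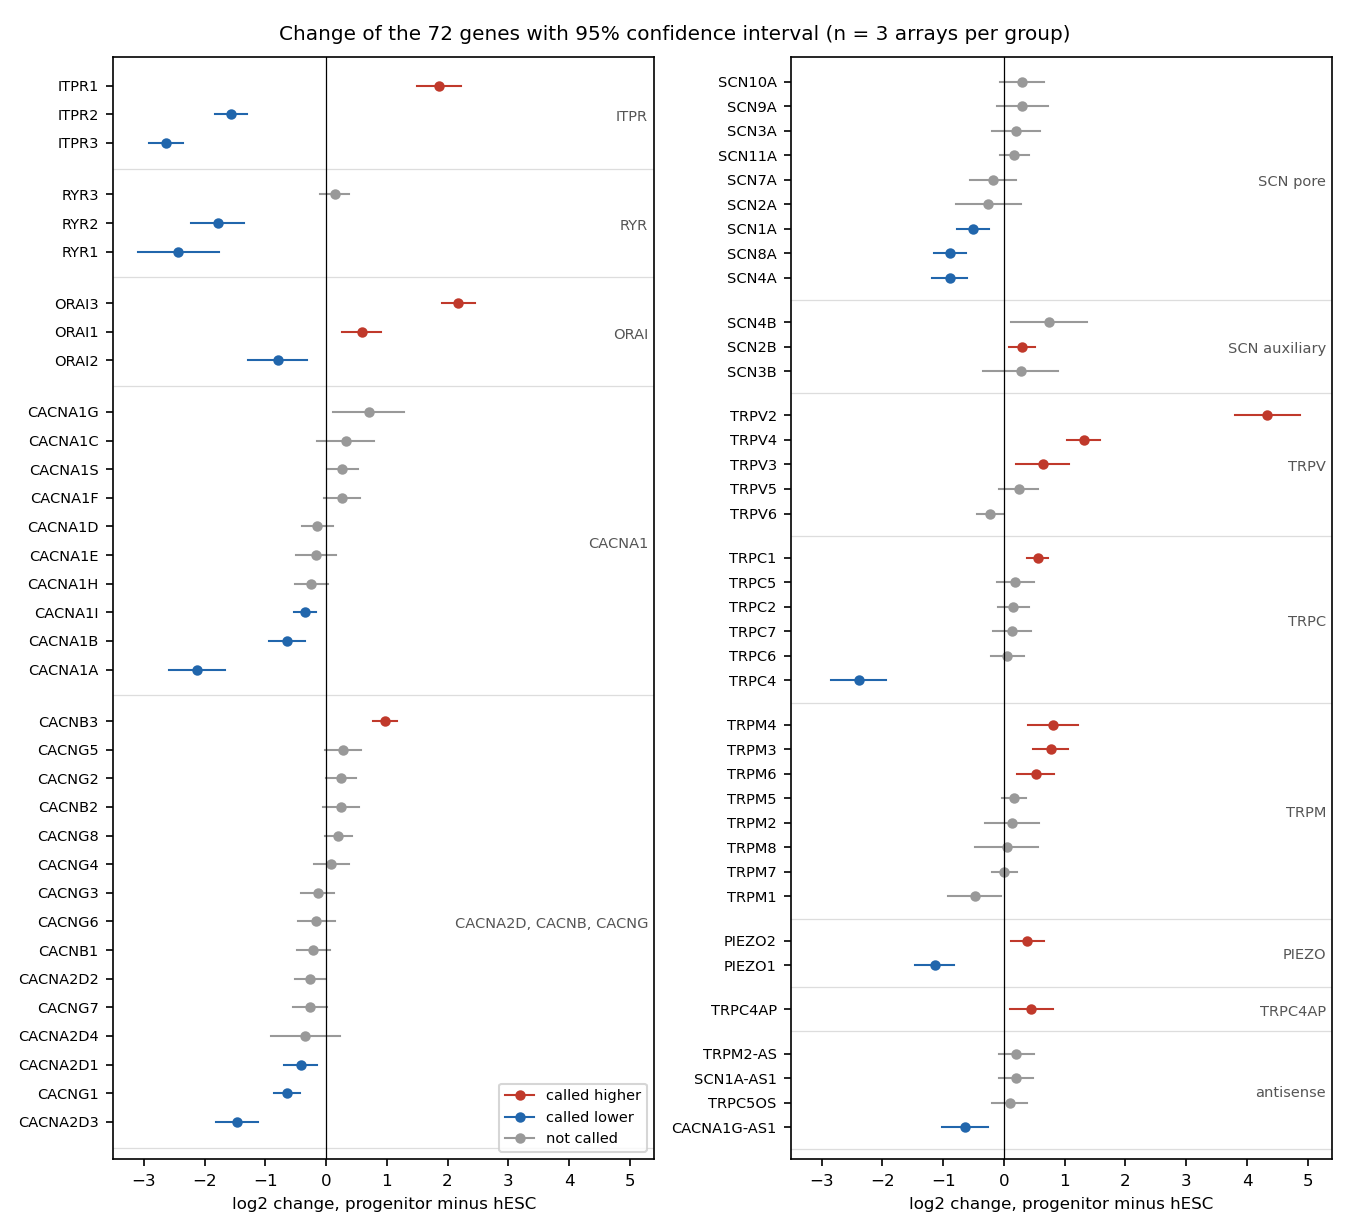
Log2 change of each of the 72 genes (x axis, mean of 3 progenitor arrays minus mean of 3 hESC arrays on the log2(intensity + 16) scale), grouped by role. Points are the changes and lines their 95% confidence intervals from limma, red for called higher, blue for called lower and grey for not called. The 3 IP3 receptor genes lie on both sides of 0, TRPV2 lies far to the right at 4.34, and most voltage-gated subunits are grey and near 0.

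Many of these genes gave a dim signal. Of the 67 channel subunits, 50 lay below the median brightness of all genes (mean over the 6 arrays), and 14 of these 50 (28%) were called, against 31.6% of all genes below it. Of the 17 above it 15 (88.2%) were called, against 64.1% of all genes there, a share given as a description of these arrays without a test. This brightness is a mean over both groups, so a large change can itself place a gene above the median. TRPV2, RYR1 and TRPC4, at percentiles 50.7, 51.8 and 54.2, lay above it through the group in which each was high. The 88.2% thus depends in part on the changes it counts. Signals of different probe sets are not compared with each other, since each has its own response.

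Of the 6 calcium release channel genes of the endoplasmic reticulum 5 were called, against 47.9% of all genes. The 3 IP3 receptor genes went in different directions. ITPR1, ITPR2 and ITPR3 encode alternative subunits of the receptor that opens on binding inositol trisphosphate, the second messenger made by phospholipase C. ITPR1 had deposited intensities of 350.2, 470.1 and 479.8 on progenitor arrays 1 to 3, against 115.2, 94.6 and 113.4 on the hESC arrays. It rose 3.63-fold (log2 change 1.86, SE 0.16, n = 3 per group, limma adjusted p = 6.24e-05), with all progenitor arrays above all hESC arrays and array 1 the lowest of the 3. ITPR2 had 100.4, 100.7 and 111.2 in the progenitors, against 325.2, 395.3 and 297.0 in hESC.

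Its level was lower on every progenitor array than on any hESC array, and the log2 change was -1.56 (SE 0.11, limma adjusted p = 3.07e-05). ITPR3 had 154.0, 126.2 and 125.6 in the progenitors, against 989.2, 1044.9 and 793.3 in hESC. It fell by 2.64 on the log2 scale (SE 0.12, limma adjusted p = 2.98e-06), again with no overlap. This was the largest decrease among the 72 genes at the pseudocount of 16, whereas RYR1 fell more at a pseudocount of 1 (-2.83, against -2.76 for ITPR3), on the mean of probe sets and with probe sets of possible multiple matches removed. The other probe sets of these genes did not all agree in size or direction. A second of 5 ITPR1 probe sets was called higher (1.40) and none lower, but the next brightest after the one used was at -0.32 without a call. Further, all 4 ITPR2 probe sets were called lower, with changes from -1.62 to -0.28, and a second of 4 ITPR3 probe sets was called lower (-2.32). On the mean of their probe sets ITPR1 was at 0.59 (adjusted p = 0.00397) and ITPR3 at -1.25 (adjusted p = 8.34e-05), both still called by limma. With probe sets of possible multiple matches removed, ITPR3 was represented by a dim probe set that did not differ beyond its spread (0.19, limma adjusted p = 0.498).

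The promoters of ITPR1 and ITPR3 are shown because these genes moved in opposite directions. Each is 250 bases before to 50 bases after the gene's start, from RefSeq on GRCh38.p14, 5′ to 3′ on the gene's strand. Capitals mark matches, on either strand, to the motifs searched for. For these windows they are the octamer ATGCAAAT of POU factors, the GC box GGGCGG of SP and KLF factors and CTTTGA, a core bound by TCF and LEF factors, and no matches overlap.
ITPR1 chr3:4493098-4493397 (+ strand): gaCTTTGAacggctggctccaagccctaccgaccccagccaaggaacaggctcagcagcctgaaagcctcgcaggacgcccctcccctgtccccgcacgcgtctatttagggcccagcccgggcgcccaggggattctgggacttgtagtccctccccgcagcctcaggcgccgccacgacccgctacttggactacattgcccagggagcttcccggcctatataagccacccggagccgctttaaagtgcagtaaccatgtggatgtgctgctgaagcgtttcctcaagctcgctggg
ITPR3 chr6:33621072-33621371 (+ strand): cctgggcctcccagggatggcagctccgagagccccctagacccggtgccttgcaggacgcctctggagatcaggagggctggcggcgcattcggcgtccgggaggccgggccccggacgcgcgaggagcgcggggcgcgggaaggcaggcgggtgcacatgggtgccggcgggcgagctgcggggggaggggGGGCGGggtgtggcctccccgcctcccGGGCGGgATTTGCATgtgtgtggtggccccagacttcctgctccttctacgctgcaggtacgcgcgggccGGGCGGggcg
The ITPR1 window held 19 CG dinucleotides, and its match to the TCF and LEF letters begins 248 bases before the start. The ITPR3 window held 33 CG dinucleotides, 3 GC boxes and the octamer, read on the other strand, beginning 23 bases before the start. The octamer is in 1.77% of all 35116 promoter windows of the table, the TCF and LEF letters in 12.9% and the GC box in 45.0%. These matches are letters in a window and were looked for after the changes were known. Of the 72 genes, 52 have a window in the table, 76 windows in all, and the ITPR3 window was the single one with the octamer.

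Among the ryanodine receptors, the release channels best known from muscle, RYR1 and RYR2 fell and RYR3 did not pass. RYR1, the skeletal muscle form, had 21.7, 48.5 and 49.1 in the progenitors, against 360.9, 321.8 and 190.3 in hESC (log2 change -2.43, SE 0.28, limma adjusted p = 0.000315). Its lowest hESC array was well above its highest progenitor array, and progenitor array 1 was the lowest. Without that array the change was -2.17. RYR2, the cardiac form, had 18.2, 10.7 and 15.0 in the progenitors, against 103.7, 116.3 and 64.7 in hESC.

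RYR2 was thus dim on every progenitor array and separate from hESC, with a log2 change of -1.78 (SE 0.19, limma adjusted p = 0.000179). Both probe sets of RYR2 were called lower, the dimmer by less. The gene was at -0.67 (limma adjusted p = 0.0231) on that probe set, the one left when possible multiple matches were removed. RYR3 differed by 0.14 (95% interval -0.09 to 0.37). Of 11 measured markers of heart and skeletal muscle 3 were higher and none lower in the progenitors, with summed intensities of 1102 to 1414 against 391.85 to 431 in hESC, and 8 did not pass. The share called higher, 27.3%, was near the 26.7% of all genes called higher. The myosin light chain MYL7 led with a log2 change of 4.02, and MYH7 and TNNI3 were at -0.06 and 0.01. Of the 11, at most 2 were at or below 1 on an array. Their part in the RYR1 and RYR2 results was not tested.

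Store-operated entry channels rose in part. ORAI3 had 607.9, 611.8 and 630.9 in the progenitors, against 124.5, 111.0 and 142.5 in hESC. The arrays of a group were close together and the groups far apart, with a 4.53-fold rise (log2 change 2.18, SE 0.11, limma adjusted p = 5.69e-06). ORAI1, the pore subunit of the best-studied store-operated current, had 775.8, 544.3 and 601.1 in the progenitors, against 435.4, 384.9 and 438.5 in hESC. It rose by a log2 change of 0.59 (SE 0.14, limma adjusted p = 0.00933), with progenitor array 1 the highest, and by 0.45 without that array.

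ORAI2 had no settled direction. Its brightest probe set, of a kind whose name marks possible matches to other transcripts, had 274.2, 255.0 and 259.7 in the progenitors, against 463.6, 643.3 and 325.4 in hESC, and was called lower (-0.79, limma adjusted p = 0.0151). The next brightest had 400.1, 311.2 and 299.4 in the progenitors, against 113.4, 124.6 and 98.0 in hESC, and was called higher when probe sets were tested singly (1.44). In all, 3 of its 6 probe sets were called higher and 1 lower. The gene was called higher on the mean of its probe sets (0.48, limma adjusted p = 0.00396), and the brightest probe set lost its call without hESC array 1 (-0.79, adjusted p = 0.0503).

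The ORAI3 promoter is shown with the same marks, as that of the ORAI gene with the largest change.
ORAI3 chr16:30948818-30949117 (+ strand): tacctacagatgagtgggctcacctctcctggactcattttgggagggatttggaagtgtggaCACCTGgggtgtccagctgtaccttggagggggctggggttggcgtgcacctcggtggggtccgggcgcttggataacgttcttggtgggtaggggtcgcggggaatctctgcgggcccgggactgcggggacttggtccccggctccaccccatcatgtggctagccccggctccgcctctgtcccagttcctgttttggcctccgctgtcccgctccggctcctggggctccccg
It held 17 CG dinucleotides and 1 match to CACCTG, an E-box bound by SNAI and ZEB factors, beginning 187 bases before the start. This E-box is in 20.6% of all windows and in 17 of the 76 windows of these genes.

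Other genes of the store cycle were taken from a list of 27, of which 23 were measured: 10 were higher, 6 lower and 7 did not pass (median 0.24). The called share was 69.6%, against 47.9% of all genes and 64.1% of all genes above the median brightness. This list had a median brightness percentile of 59.6. STIM1, the main calcium sensor of the store, had 212.1, 202.5 and 207.7 in the progenitors, against 62.9, 49.4 and 45.8 in hESC, and rose by 1.74 on the log2 scale (SE 0.10, limma adjusted p = 1.14e-05). Its groups were far apart. The list's largest increases were those of the phospholipases PLCE1 (3.07) and PLCB1 (2.24), which make inositol trisphosphate, followed by STIM1. The largest decreases were those of CRACR2B (-1.83), which regulates ORAI channels, the scaffold HOMER2 (-1.75) and the junctional protein JPH1 (-1.44).

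Pumps, exchangers and store proteins moved both ways, with 10 of 29 higher, 11 lower and 8 not called (median -0.20). The called share was 72.4%, against 47.9% of all genes. The plasma membrane calcium pumps ATP2B4 and ATP2B1 rose by 2.67 and 1.40, and the store protein HRC by 2.56, while the exchangers SLC24A3 and SLC24A2 and the endoplasmic reticulum pump ATP2A3 had changes of -1.60, -1.13 and -1.38. Of 19 measured calcium-dependent effectors 10 were higher, 5 lower and 4 not called (median 0.39). The called share was 78.9%, against 47.9% of all genes and 64.1% of all genes above the median brightness. This list had a median brightness percentile of 61.1. The calmodulin kinase CAMK2D, the calcineurin subunit PPP3CC and its target NFATC1 rose by 2.59, 2.07 and 1.95. The kinases CAMK2G, CAMK1 and CAMKK1 had log2 changes of -1.48, -0.67 and -0.51.

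**Figure D2:**
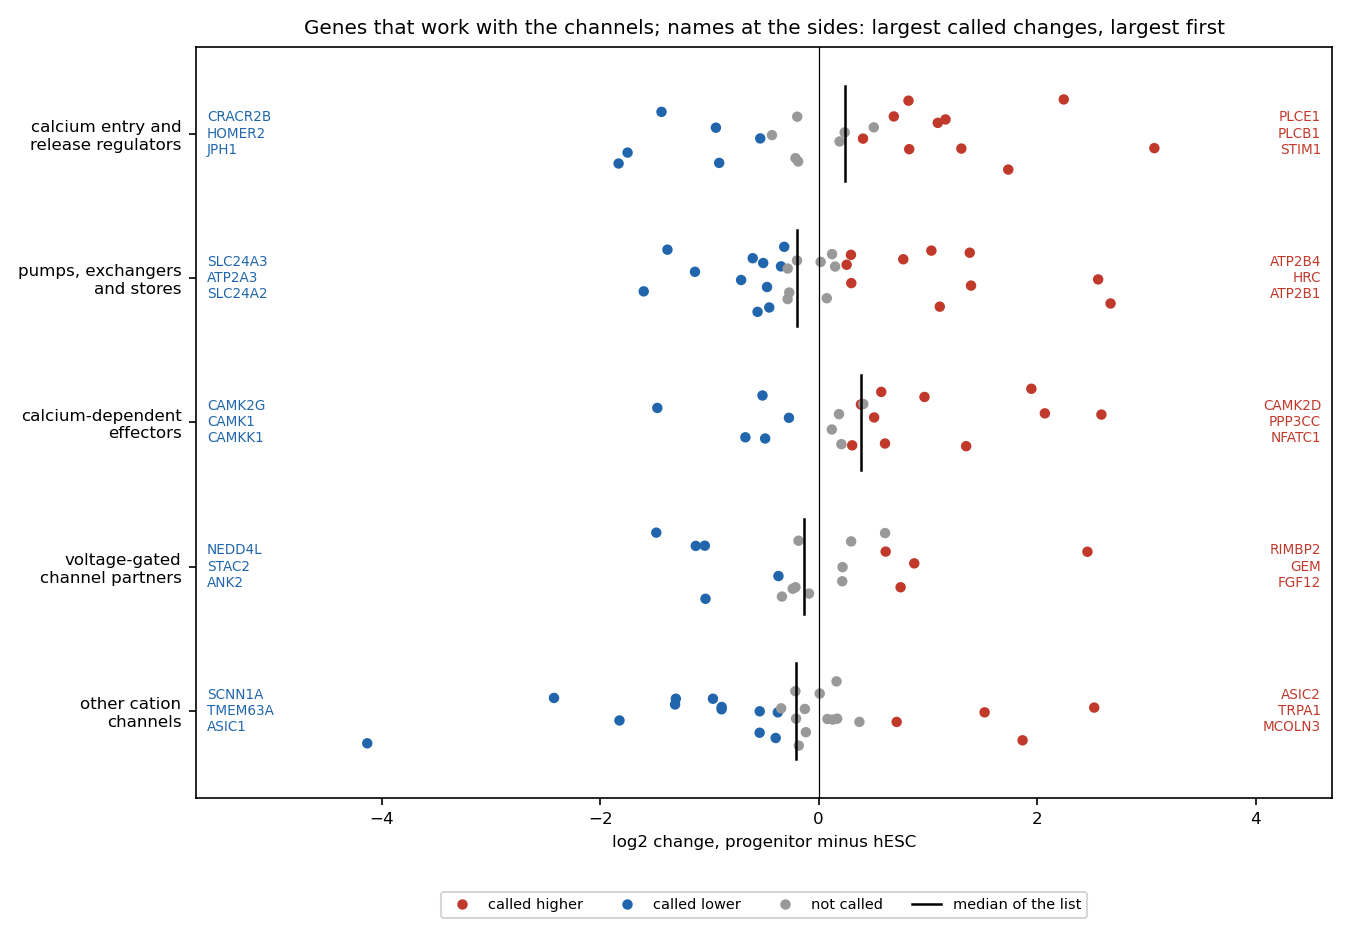
Log2 change (x axis, progenitor minus hESC) of genes from 5 lists of proteins that work with the channels or belong to neighbouring channel families. Each point is a gene, spread vertically for clarity, with the list's median as a black line and the largest called changes named at the sides. Increases and decreases occur in every list, and SCNN1A lies farthest left at -4.13.

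Voltage-gated calcium channels mostly did not pass the test. Of 10 pore subunits 3 fell, none rose and 7 did not pass, with a median of -0.15. None of the 10 was higher at an adjusted p under 0.05 in limma, and 2, CACNA1G and CACNA1S, were higher at an unadjusted p under 0.05. Of the 10, 9 lay below the median brightness of all genes. Their called share was 30%. It was 31.6% among all genes below that brightness and 47.9% among all genes, with 21.2% called lower. CACNA1A, the pore of the P/Q-type channel of nerve terminals, had 94.6, 76.5 and 87.1 in the progenitors, against 506.2, 532.6 and 299.2 in hESC. It fell by 2.12 on the log2 scale (SE 0.20, limma adjusted p = 0.000103), and its hESC values varied more than its progenitor values without meeting them. A second of its 5 probe sets was called lower (-1.30), the other 3 were between -0.26 and -0.05 without a call, and the mean of the probe sets was at -0.76 (limma adjusted p = 0.0014).

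CACNA1B, the N-type pore, and CACNA1I, a low-voltage T-type pore, also fell, with log2 changes of -0.64 and -0.34. CACNA1G, another T-type pore, had 64.6, 96.0 and 112.8 in the progenitors, against 46.7, 80.7 and 36.0 in hESC. The groups overlapped and it was not called (0.70, 95% interval 0.12 to 1.28, limma adjusted p = 0.0509). It was called without progenitor array 1 (0.89, adjusted p = 0.0287) or hESC array 2 (0.94, adjusted p = 0.0146), and under 5 further settings, and its direction turned on probe sets without possible matches to several transcripts (-0.36). Its antisense gene CACNA1G-AS1 fell, with a log2 change of -0.64. The other pore subunits, CACNA1C, CACNA1S, CACNA1F, CACNA1D, CACNA1E and CACNA1H, had changes between -0.24 and 0.32 without a call.

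Of 15 genes named as auxiliary calcium channel subunits 1 rose, 3 fell and 11 did not pass. The called share was 26.7%, against 47.9% of all genes. CACNB3, a cytoplasmic beta subunit that helps the pore reach the membrane, rose by a log2 change of 0.97 (SE 0.09, limma adjusted p = 8.07e-05), and so did its other probe set (1.01). CACNA2D3, an alpha-2-delta subunit on the outer face, had 17.2, 14.4 and 12.9 in the progenitors, against 65.2, 96.9 and 60.9 in hESC. It fell by 1.46 on the log2 scale (SE 0.15, limma adjusted p = 0.000153), and the groups did not overlap. CACNG1, the gamma subunit of skeletal muscle, had a log2 change of -0.65.

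CACNA2D1, the target of gabapentin, had 611.6, 560.2 and 562.5 in the progenitors, against 788.8, 942.5 and 680.9 in hESC. This small difference was called (-0.42, SE 0.12, limma adjusted p = 0.0215) but not without progenitor array 2 (-0.40, adjusted p = 0.0691) or 3 (-0.40, adjusted p = 0.0696) or hESC array 1 (-0.42, adjusted p = 0.0584), and it turned to 0.06 with hybridization controls. Of this class CACNA2D2 had 509.9, 544.9 and 526.8 in the progenitors, against 643.4, 580.6 and 710.9 in hESC, separate groups that missed the threshold (-0.26, 95% interval -0.50 to -0.01, limma adjusted p = 0.0812) and passed it without hESC array 2 (-0.34, adjusted p = 0.0313). CACNB1 and CACNB2 were not called. CACNB1 had 60.9, 66.3 and 57.1 in the progenitors, against 93.0, 75.6 and 66.6 in hESC. CACNB2 had 49.5, 60.4 and 57.5 in the progenitors, against 59.3, 51.2 and 37.6 in hESC, with overlap. Of the 6 CACNB2 probe sets, 4 dimmer ones were called lower when tested singly, with changes from -1.13 to -0.40. CACNG2 to CACNG8 were not called, with changes between -0.26 and 0.28, nor was CACNA2D4 (-0.34).

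Sodium channel genes of the SCN family were dim on these arrays, with all 9 named as pore subunits below the median brightness of all genes. Of these 3 fell, none rose (0 at an unadjusted p under 0.05 in limma) and 6 did not pass. The called share of 33.3% was near the 31.6% called among all genes below that brightness. SCN8A, a pore subunit of neuronal axons, had 45.7, 44.6 and 45.2 in the progenitors, against 122.4, 99.99 and 86.9 in hESC. Its progenitor arrays lay within 2 units of each other and below every hESC array, and it fell by 0.89 (SE 0.11, limma adjusted p = 0.000497). Of its 6 probe sets, 4 were called lower and none higher. SCN4A, the skeletal muscle pore, and SCN1A, a neuronal pore, had log2 changes of -0.89 and -0.51.

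SCN2A, SCN3A, SCN7A, SCN9A, SCN10A and SCN11A had changes between -0.25 and 0.30 without a call. Among the auxiliary subunits, SCN2B rose by 0.30 on a dim signal (mean intensities 14.7 in the progenitors and 10.02 in hESC), and this call was lost without any 1 of progenitor arrays 1, 2 and 3 or hESC array 2 (log2 changes 0.23 to 0.33), and the mean of its probe sets was at -0.04. SCN4B had 21.8, 57.2 and 59.0 in the progenitors, against 26.8, 16.8 and 22.1 in hESC. Progenitor array 1 lay among the hESC arrays, and the gene was not called (0.74, limma adjusted p = 0.0557). It was called without that array (1.07, adjusted p = 0.00131) and under 5 other settings. SCN3B differed by 0.27 without a call, and progenitor array 1 exceeded arrays 2 and 3 by 0.80 on the log2 scale.

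Of 18 measured partners of the voltage-gated channels 4 were higher, 5 lower and 9 not called (median -0.14). The called share of 50% was near the 47.9% of all genes. RIMBP2, which links calcium channels to synaptic vesicles, rose by 2.46, the calcium channel inhibitor GEM by 0.88 and FGF12, which binds sodium channels, by 0.75. The ubiquitin ligase NEDD4L, the adaptor STAC2 and ankyrin ANK2 had log2 changes of -1.49, -1.12 and -1.04. Of 12 neuronal markers 7 were lower and none higher in the progenitors, with summed intensities of 7108 to 7395 against 8632 to 8903 in hESC. The share called lower was 58.3%, against 21.2% of all genes. The synaptic vesicle protein SYT1 had a log2 change of -2.29, and none of the 12 was at or below 1. Their part in the falls of CACNA1A, CACNA1B, SCN8A and SCN1A was not tested.

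**Figure D3:**
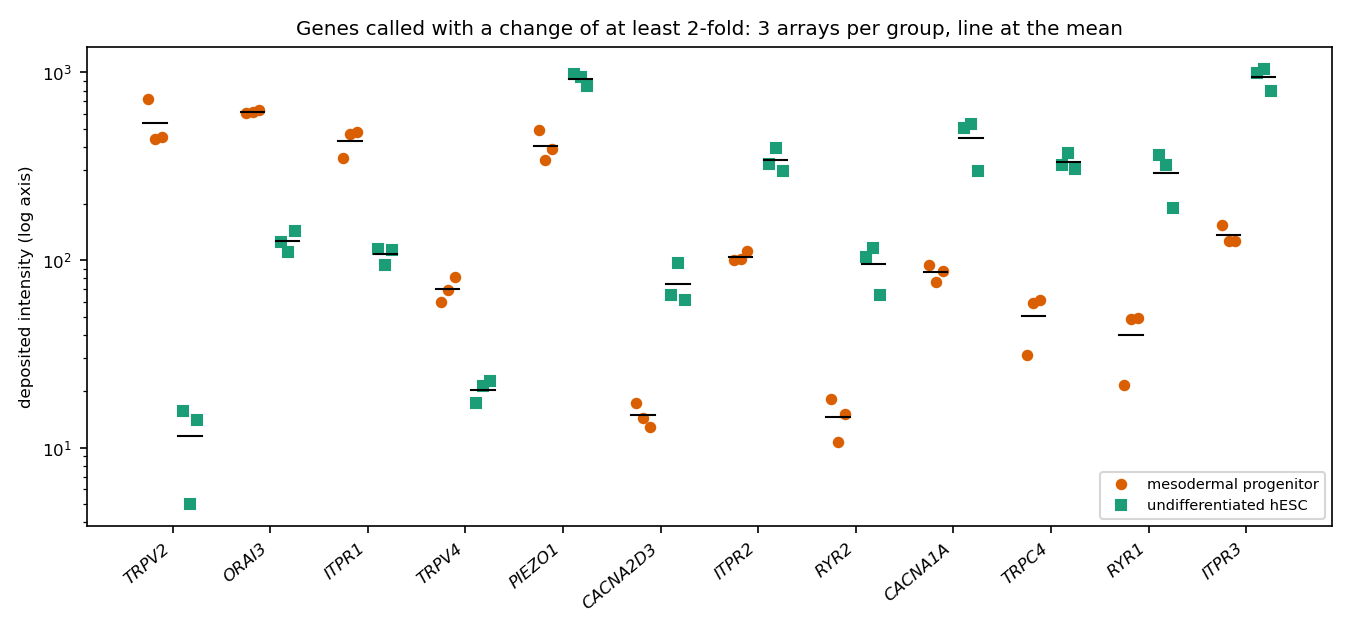
Deposited intensity on each array (y axis, log scale) of the 12 genes called with a change of at least 2-fold, ordered from the largest increase to the largest decrease. Orange circles are the 3 progenitor arrays, green squares the 3 hESC arrays and black lines the group means. The groups are apart in each gene, and progenitor array 1, the leftmost circle, is high for TRPV2 and low for RYR1 and TRPC4.

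Of 5 measured TRP channels of the vanilloid class 3 rose, none fell and 2 did not pass (median 0.64, against 0.04 over all genes), with TRPV6 lower at an unadjusted p under 0.05. The called share was 60%, against 47.9% of all genes. TRPV2, a channel that responds to stretch and lipids, had the largest change among the 72 genes. It had 716.9, 439.0 and 451.0 in the progenitors, against 15.7, 4.98 and 14.0 in hESC, a dim signal in every hESC array. The log2 change was 4.34 (SE 0.23, limma adjusted p = 5.78e-06), and 4.12 without progenitor array 1, which was the highest. It ranged from 5.58 at a pseudocount of 1 to 2.59 on the mean of both probe sets, and the dimmer probe set was called higher too (0.85).

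TRPV4, which responds to osmotic swelling and warmth, had 59.8, 68.8 and 81.0 in the progenitors, against 17.3, 21.3 and 22.6 in hESC. It rose 2.48-fold (log2 change 1.31, SE 0.12, limma adjusted p = 8.55e-05), without overlap. TRPV3, a warmth-gated channel of skin, rose by 0.64 (limma adjusted p = 0.0256), but its call was lost without progenitor array 1 (0.51) or 3 (0.67) or hESC array 1 (0.58) or 2 (0.50). TRPV5 and TRPV6, the calcium-selective channels of epithelia, were not called (0.24 and -0.23).

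In the canonical class, whose channels open downstream of phospholipase C, TRPC1 and TRPC4 moved in opposite directions. TRPC4 had 31.3, 58.9 and 61.4 in the progenitors, against 320.1, 373.5 and 305.4 in hESC. It fell by 2.39 (SE 0.19, limma adjusted p = 5.06e-05), and by 2.17 without progenitor array 1, which was the lowest. Each of its 4 probe sets was called lower, with changes from -2.42 to -1.98. TRPC1 had 660.7, 621.6 and 617.2 in the progenitors, against 426.6, 440.1 and 423.3 in hESC. Its groups were tight and separate, and it rose by 0.55 (SE 0.08, limma adjusted p = 0.000716), with each of its 3 probe sets called higher. TRPC5, TRPC6, TRPC7 and the human pseudogene TRPC2 were dim and not called (0.06 to 0.19), and TRPC4AP rose by 0.45. Its call was lost without any 1 of progenitor arrays 1, 2 and 3 or hESC arrays 1 and 2 (log2 changes 0.29 to 0.50).

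The TRPC4 promoter is shown as that of a gene whose probe sets all fell.
TRPC4 chr13:37869723-37870022 (- strand): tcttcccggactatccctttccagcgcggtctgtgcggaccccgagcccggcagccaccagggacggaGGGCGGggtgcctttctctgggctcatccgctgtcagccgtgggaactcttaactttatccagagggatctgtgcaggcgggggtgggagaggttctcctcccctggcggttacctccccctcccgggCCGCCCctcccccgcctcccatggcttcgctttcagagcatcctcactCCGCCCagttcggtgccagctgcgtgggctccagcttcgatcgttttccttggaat
It held 21 CG dinucleotides and 3 GC boxes, 2 of them read on the other strand. A GC box was present in each of the 7 windows of genes that fell at least 2-fold, which cover 7 of those 8 genes. It was in 13 of 15 windows of all genes called lower, in 8 of 17 of those called higher and in 18 of 44 of those not called. These windows belong to 14, 11 and 27 genes, so genes with several windows count more than once. A GC box was in 39 of the 76 windows of these genes and in 45.0% of all windows. The GC box holds only G and C. Median GC content was 75.3% in the 7 windows and 72.3% in the 15. It was 65.7% for genes called higher, 56.5% for genes not called and 58.7% over all windows. The median number of CG dinucleotides was 29 in the windows of genes called lower, 19 of genes called higher and 6.5 of genes not called, against 14 over all windows. AGATAA, a core bound by GATA factors, was in 8 of the 76 windows, against 10.3% of all. These are descriptions of the windows without a test.

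In the melastatin class 3 of 8 rose, none fell and 5 did not pass, with TRPM1 lower at an unadjusted p under 0.05. The called share was 37.5%, against 47.9% of all genes. TRPM4, a calcium-activated channel for monovalent cations, rose by 0.81 (limma adjusted p = 0.00737). TRPM3 and the magnesium channel TRPM6 rose by 0.77 and 0.52 on dim signals. Of the 8 TRPM3 probe sets 2 were called lower, and TRPM3 turned to -0.02 on the mean of its probe sets. TRPM7, a channel fused to a kinase that carries magnesium and calcium, had 560.5, 552.6 and 564.9 in the progenitors, against 509.6, 605.1 and 570.2 in hESC. The groups overlapped and the difference was 0.01 (95% interval -0.20 to 0.21), although 2 of its 4 dimmer probe sets were called lower (-0.50 and -0.86).

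Of the mechanically gated PIEZO channels, PIEZO1 fell and PIEZO2 rose. PIEZO1 had 492.3, 340.1 and 390.1 in the progenitors, against 979.9, 947.4 and 840.8 in hESC. It fell by 1.14 (SE 0.14, limma adjusted p = 0.000342) and by 1.27 without progenitor array 1, and was not called on the mean of its 3 probe sets (-0.25, adjusted p = 0.133). PIEZO2, with mean intensities of 94.8 in the progenitors and 71.5 in hESC, rose by 0.39 (limma adjusted p = 0.0274). Of its 6 probe sets 3 were called higher and none lower. The call was lost without progenitor array 1 (0.29) or hESC array 2 (0.36) or 3 (0.35).

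**Figure D4:**
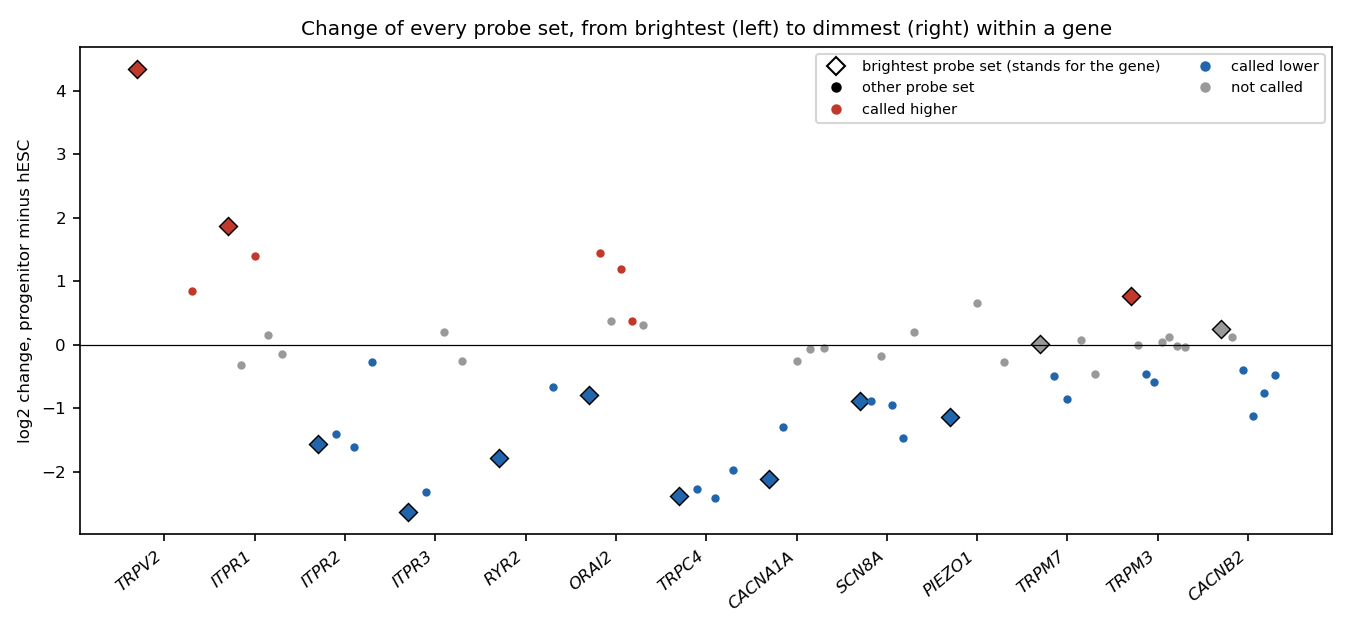
Log2 change of every probe set (y axis) of 13 genes with several probe sets, ordered from brightest to dimmest within a gene. Diamonds mark the brightest probe set, which stands for the gene, and colours the call when all 41091 1-gene probe sets were tested singly. The 4 TRPC4 probe sets and the 4 ITPR2 probe sets are all blue, whereas ORAI2 and TRPM3 hold both red and blue.

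Across all 179 probe sets tested singly, 25 were called higher and 38 lower (35.2%), against 43.4% of all 1-gene probe sets (24.2% higher and 19.2% lower). Of the 31 called genes 21 had several probe sets. In 12 of these another probe set was called in the same direction, and in 2, ORAI2 and TRPM3, one was called in the opposite direction. Of the 41 genes not called, 3 had a probe set called singly, which were CACNA1G (higher), CACNB2 and TRPM7 (lower). All 12 genes with a 2-fold change were called in the same direction without each array in turn.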

How the data were processed

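RNA of 6 samples was measured on 1-colour oligonucleotide arrays after amplification to biotin-labelled cRNA, per the labels' protocols. The authors' deposited values are intensities on a linear scale. For their summarisation, background correction and scaling the method is not given in the sources used here. A value of exactly 1, close to the floor, made up 2.15% of the table.

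Intensities were converted to log2(intensity + 16) and quantile-normalized. Array controls were left out of the tests. Each gene was represented by its brightest 1-gene probe set (mean over the 6 arrays). Genes were tested with limma 3.58.1 (R 4.3.3; lmFit and eBayes, two-sided). The code was run on data simulated with independent normal noise of each gene's own spread. Such data hold no shared array effects, so this run does not bear on scaling or on related replicates. The probe sets shared by TRPV1 and SHPK are not analysed here. Precision is limited by the small number of arrays (3 in each group). Fold changes understate the change of dim genes.

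Values on each array are given for member genes called with a log2 change of at least 1, the brightest gene of each role and the 5 brightest genes not called; of partner lists the 3 largest called changes each way are named. ORAI2, STIM1, SCNN1A, ASIC2 and TRPA1 were added after their values were seen. Members and lists were chosen with earlier results of these data known. Alternatives covered scaling, pseudocount, filters, probe set choice, variance models, a replicate block, averaging progenitor arrays 2 and 3, and leaving out each array. Same-numbered arrays of the groups did not deviate together (r = -0.038 to 0.027 across genes). Figures were drawn with matplotlib 3.10.9.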

Additional observations from a re-analysis of the deposited data

How the results depend on the processing

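Of the 31 called genes, 18 kept direction and call under every alternative in which they were tested, and 25 without each array in turn. Of the 18, 11 were tested under all 19 alternatives, and 7 under 17 or 18 because filters on dim genes removed them. The main counts were 14 of the 72 genes higher and 17 lower. Median centring gave 9 higher and 26 lower, scaling on hybridization controls 30 higher, array weights 22 higher and 27 lower, and leaving out the dimmest 50% of genes, which leaves fewer genes to test, 8 higher and 9 lower. Over all genes the hybridization controls gave 9086 higher and 2007 lower, and median centring gave 6436 lower. Leaving out 1 array gave 12 to 14 genes higher and 15 to 19 lower, and averaging progenitor arrays 2 and 3 gave 12 and 17. With the replicate block the counts were 15 and 17. The labels share only a replicate number between groups.

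Direction turned under at least 1 alternative for ITPR3, ORAI2, CACNA2D1, CACNA2D2, CACNB1, CACNB2, CACNA1G and TRPM7 among the genes given array by array. With hybridization controls CACNB1 was at 0.15, CACNA2D2 at 0.23 and CACNA2D1 at 0.0623. Median centring turned CACNB2 to -0.0008 and TRPM7 to -0.15. CACNB2 and TRPM7 were called higher with hybridization controls (0.55 and 0.51, limma adjusted p = 0.00725 and 0.00745) and lower on the mean of probe sets (-0.40 and -0.35, adjusted p = 0.00429 and 0.0246), where ORAI2 was at 0.48. With probe sets of possible multiple matches removed, CACNB2 was at -0.40 and TRPM7 at -0.50, both called lower, ORAI2 was at 1.44 and called higher, CACNA1G was at -0.36 and ITPR3 at 0.19, since other probe sets then stand for these genes. TRPM7 was at -0.0024 without normalization, at -0.0056 without progenitor array 3 and at -0.0538 without hESC array 1. Leaving out 1 array in turn gave TRPM7 values of -0.0538 to 0.0499. Sizes moved by over 1.5 times without a change of call for ORAI1 (1.09), TRPC1 (1.05), SCN8A (-0.52) and PIEZO1 (-0.65) with hybridization controls, and for CACNA2D3 (-0.77), RYR2 (-0.98), TRPV4 (0.70) and SCN8A (-0.57) at a pseudocount of 64. The cause of the differences between scalings was not tested. Signal near the floor limits the dim sodium channel, TRPC5, TRPC6 and TRPC7 results.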

Other observations

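Cation channels of neighbouring families that the rule leaves out also differed. Of 28 measured, 4 were higher, 12 lower and 12 not called, with a median log2 change of -0.21 against 0.04 over all genes. The called share was 57.1%, against 47.9% of all genes. SCNN1A, a subunit of the epithelial sodium channel, had deposited intensities of 43.6, 47.8 and 43.9 in the progenitors, against 1067.7, 1227.4 and 1074.0 in hESC, and a log2 change of -4.13 (SE 0.09, limma adjusted p = 1.56e-07). TMEM63A, a mechanically gated channel, and ASIC1, an acid-sensing sodium channel, had changes of -2.42 and -1.82.

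ASIC2, TRPA1 and the endolysosomal channel MCOLN3 rose by 2.52, 1.87 and 1.52. ASIC2 had 180.2, 71.98 and 69.9 in the progenitors, against 3.42, 1.00 and 8.51 in hESC. TRPA1 had 127.0, 58.9 and 58.7 in the progenitors, against 8.93, 6.38 and 16.4 in hESC. Both were highest on progenitor array 1, on which the endothelial markers also had their highest sum, and the part of endothelial cells in these values was not tested.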
